A study of Homo sapiens with 10 samples.

Results

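The IFIT and IFITM antiviral families were examined in NB4 cells, a line derived from acute promyelocytic leukemia. The members were taken by gene symbol among the protein-coding genes, which gave IFIT1, IFIT2, IFIT3, IFIT5, IFITM1, IFITM2 and IFITM3, 7 of the 19975 protein-coding genes and of the 60603 genes in all. The data come from mRNA-seq of 10 libraries in 2 experiments. In the GSE1 knockdown (KD) experiment, cells were transduced in 2 rounds with the lentiviral vector pLKO.1 puro, either empty (EV) or with an insert for shA1 or shB2, hairpins that target GSE1, and were harvested after 48 h. In the MC2580 experiment, cells for which no transduction is described were treated for 24 h with 2 µM MC2580, an inhibitor of the histone demethylase LSD1, or with DMSO. Each of the 5 groups had 2 libraries. The titles of the MC2580 libraries give the compound as MC280, and their treatment field gives it as MC2580. All 6 libraries of the KD experiment, EV included, were exposed to lentivirus.

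The only expression value used from each experiment was the base mean, the authors' average over libraries of counts divided by a size factor. In the KD experiment it is repeated beside each hairpin's comparison with EV, and the 2 columns were identical in all 60603 genes. It was therefore taken as 1 mean over all 6 libraries, 2 EV with 4 hairpin libraries, although the headers do not name the libraries averaged. In the same way the other base mean was taken as the mean over 2 DMSO and 2 MC2580 libraries, so that each pools control and treated cells. No value per library or per group was used, so the values below carry no replicate error, and no effect of a hairpin or of MC2580 on these genes is given here. The depth of each library is unknown, while base means added over the genes came to 40543130 in the KD experiment and to 41201112 in the MC2580 experiment.

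IFIT proteins are cytosolic RNA-binding proteins built of tetratricopeptide repeats. IFIT1 binds the 5′ end of RNAs that lack the methylation of a mature human cap and blocks their translation, IFIT2 and IFIT3 form complexes with it and with each other, and IFIT5 binds RNAs with a 5′ phosphate. IFITM proteins are small membrane proteins that hinder the fusion of enveloped viruses with the cell, IFITM1 mainly at the cell surface and IFITM2 and IFITM3 mainly in endosomes and lysosomes. Type I interferons induce both families through the receptor chains IFNAR1 and IFNAR2, the kinases JAK1 and TYK2, and ISGF3, a transcription factor complex that binds the interferon-stimulated response element in promoters. The families are unrelated in sequence.

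The 4 IFIT members lie on the plus strand of chromosome 10 within 138 kb (GRCh38, chr10:89283694-89421605, GENCODE release 44), in the order IFIT2, IFIT3, IFIT1 and IFIT5. The 3 IFITM members lie within 25.8 kb near the end of chromosome 11 (chr11:303655-329475), IFITM2 and IFITM1 on the plus strand and IFITM3 on the minus strand. The reference transcript of every member (MANE Select) has 2 exons. The IFIT proteins span 472 to 490 residues and the IFITM proteins 125 to 133.

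The promoter sequences are shown because they were searched for the core of the interferon-stimulated response element. Another reason is that 1 of the study's ChIP-qPCR assays was aimed at the IFIT3 promoter. RefSeq windows (GRCh38.p14) running from 250 bases before to 50 after a start site were at hand for 5 members, IFIT1, IFIT3, IFIT5, IFITM1 and IFITM3, with 2 windows for IFIT3. The core of the response element was searched as GAAANNGAAA on both strands, which reads TTTCNNTTTC on the other strand, and overlapping matches would have been counted separately. The part of each window that holds the matches before the start site is given below from 5′ to 3′ on the strand of the gene, with each match in capitals.
IFIT3, first start, chr10:89327821-89327904, plus strand: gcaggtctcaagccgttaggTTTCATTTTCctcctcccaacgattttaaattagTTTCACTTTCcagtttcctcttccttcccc
IFIT3, second start, chr10:89332415-89332507, plus strand: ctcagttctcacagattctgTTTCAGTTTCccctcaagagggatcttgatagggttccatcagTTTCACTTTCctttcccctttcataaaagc
IFIT1, chr10:89392487-89392549, plus strand: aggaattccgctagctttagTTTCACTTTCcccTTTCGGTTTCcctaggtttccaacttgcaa
IFIT5, chr10:89414503-89414567, plus strand: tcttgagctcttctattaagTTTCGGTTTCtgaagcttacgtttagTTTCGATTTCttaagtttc
IFITM1, chr11:313980-314029, plus strand: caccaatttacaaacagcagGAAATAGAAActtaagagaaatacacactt
IFITM3, chr11:320866-320932, minus strand: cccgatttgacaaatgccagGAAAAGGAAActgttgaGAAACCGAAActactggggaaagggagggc

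All 6 windows held the motif, against 3.57% of the 35116 windows of all genes. Every member window held at least 2 matches, which 0.259% of all windows did, and IFIT5 held 3, which 0.037% did. The matches of IFIT1, IFIT3 and IFIT5 read GAAA on the strand opposite to the gene, and those of IFITM1 and IFITM3 read it on the strand of the gene. In IFIT1 and at both starts of IFIT3 the matches lay between 156 and 42 bases before the start, whereas IFIT5 and IFITM1 each had 1 match that ran across the start site itself. The letters TTTCACTTTC occurred in IFIT1 and in both IFIT3 windows. Of the 27 other interferon-stimulated genes with a window, drawn from the list described below, 21 held the motif. When a gap of 1 base was also allowed, 26 did. Of 5 genes of the receptor and ISGF3 none did in either search (0 genes). Of 7 housekeeping genes with a window, 0 held the motif, and 1 did with the gap of 1 base also allowed. A match is a run of letters and was not tested for binding.

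**Figure D1:**
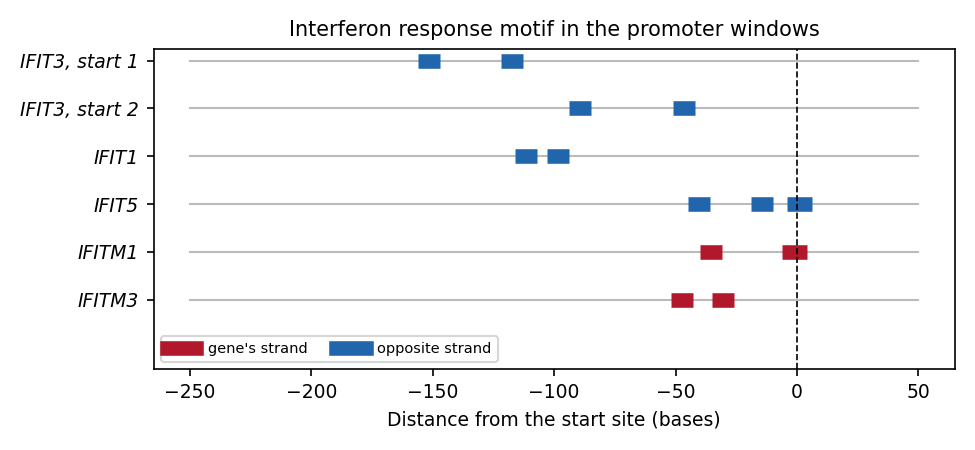
Position of the motif (2 copies of GAAA parted by 2 bases) in the 6 promoter windows of 5 members; the x axis gives the distance in bases from the annotated start site (dashed line), and each block is a match, red on the strand of the gene and blue on the opposite strand. Every window holds 2 or 3 matches, all blue in the IFIT genes and all red in the IFITM genes.

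The primers that the study lists for ChIP-qPCR of the IFIT3 promoter were located in the same genome, as they show which stretch of the gene that assay covers. They are given from 5′ to 3′, with no capitals.
IFIT3 forward, chr10:89333493-89333511, plus strand: aaaccccaagaggcaggag
IFIT3 reverse, chr10:89333626-89333644, minus strand: aattctggtctggagcccc
Each matched chromosome 10 once, and together they bound a product of 152 bp. Its near end lay 964 bases downstream of the second RefSeq start of IFIT3 and 5496 bases downstream of the first, inside the only intron of the MANE Select transcript. The product shared 0 bases with either promoter window and held 0 copies of the motif, as did the 500 bases on each side of it. These windows are narrower than the promoter span that the paper used for its LSD1 and H3K4me3 ChIP-seq. Counted from the second start the product lies inside that wider span, and counted from the first start it lies outside. For its GSE1 ChIP-seq the paper instead took reads in called peaks that were assigned to each gene. The product was not set against those peaks, and ChIP signal was not used here.

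Of the 6 promyelocyte markers, ELANE alone was near 0, while some markers of other cell types were not near 0. CTSG had base means of 4012 in the KD experiment and 6435 in the MC2580 experiment. In the same order PRTN3 had 2511 and 4358, CD33 had 2860 and 2728, and AZU1 had 723 and 1814. MPO, the myeloperoxidase of promyelocyte granules, had a base mean of 506765 in the KD experiment and 824818 in the MC2580 experiment, while ELANE, another granule protein gene on the promyelocyte list, was near 0 at 1.10 and 3.87. The summed level of the 6 promyelocyte markers was 12749 parts per 1000000 of all base means (ppm) in the KD experiment and 20392 in the MC2580 experiment, and AZU1, another granule protein gene, had the lowest log2 ratio of the former to the latter, -1.30, among the 5 of them with a mean level of at least 1 ppm. The markers of T cells, B cells, erythroid and epithelial cells, 3 genes each, summed to at most 22.2 ppm in either experiment. They were not all near 0: CD3D was at 21.4 ppm in the KD experiment and 21.1 in the MC2580 experiment, and EPCAM at 10.7 and 9.79. MPO alone gave 12499 and 20019 ppm of the promyelocyte sums. GSE1, the target of the hairpins, had base means of 2963 and 4441, and KDM1A, which encodes LSD1, of 7648 and 6285. Since these values pool control with treated libraries, they do not check the knockdown.

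All 7 members were expressed in both experiments. IFIT3 had the highest base mean of the IFIT genes in the KD experiment, 4093, against 1104 in the MC2580 experiment. IFIT2 followed with base means of 3553 and 444. For IFIT1 they were 2832 and 1277. The fourth, IFIT5, had 974 and 532. Thus each IFIT gene stood at a higher base mean in the KD experiment. The IFITM genes were placed the other way round. IFITM2 had base means of 5429.9 in the KD experiment and 8237 in the MC2580 experiment, IFITM1 of 2925 and 3649, and IFITM3 of 176 and 259.

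Levels of different genes were compared per length, in ppm per kilobase of the longest GENCODE transcript. On this scale IFITM2 was the most abundant member in both experiments, at 133 in the KD experiment and 199 in the MC2580 experiment, above 97.8% and 98.4% of protein-coding genes. IFITM1 came second, at 85.5 and 105. IFITM3, the endosomal member best known for restricting influenza virus, stood far below its neighbors, at 4.17 and 6.01. The IFITM order was the same in both experiments. The ratio of the highest to the lowest IFITM member was 31.9 in the KD experiment and 33.0 in the MC2580 experiment. With the length of the MANE Select transcript these ratios were 18.7 and 19.3, in the same order.
Among the IFIT genes the order per length differed between the experiments. In the KD experiment IFIT3 was at 25.2, IFIT2 at 23.7, IFIT1 at 15.1 and IFIT5 at 5.94. In the MC2580 experiment IFIT1 was at 6.72, IFIT3 at 6.68, IFIT5 at 3.19 and IFIT2 at 2.91. IFIT2 thus moved from the second to the last place, and its share of the summed IFIT level per length was 33.9% in the KD experiment against 14.9% in the MC2580 experiment. With the length of the MANE Select transcript, IFIT3 led in both experiments, at 42.2 and 11.2. With no spread between libraries, it cannot be said which neighbors in these orders differ.

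**Figure D2:**
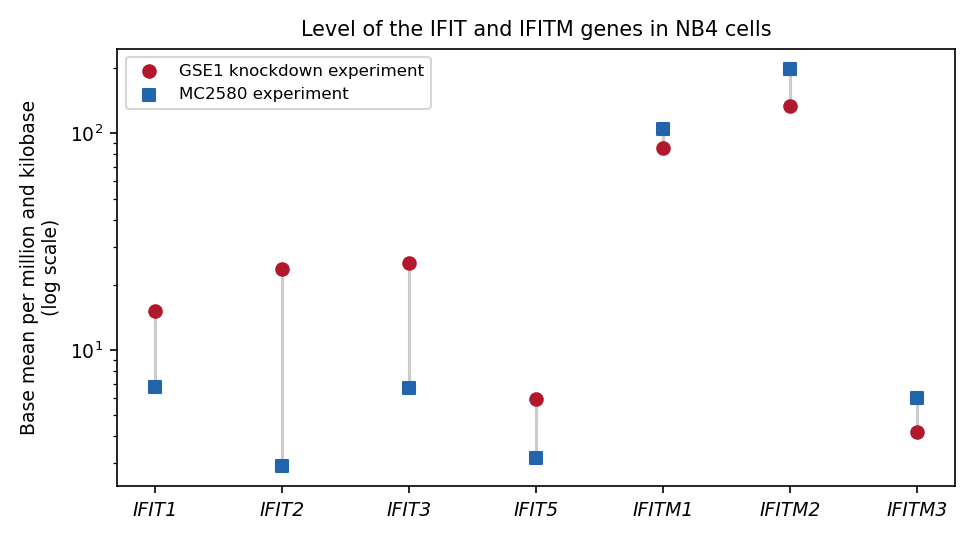
Level of each member in the 2 experiments; the y axis is the base mean in ppm of all base means and per kilobase of the longest transcript, on a log scale, with 1 point per experiment (circles, KD experiment; squares, MC2580 experiment) and no error bars because no value per library was used. The 4 IFIT genes are higher in the KD experiment and the 3 IFITM genes are lower.

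The members' levels were then set side by side between the experiments, as the log2 ratio of the level in ppm in the KD experiment over that in the MC2580 experiment. Each table was normalized on its own. The experiments differ in lentiviral transduction, hairpins, compound, vehicle and time, which cannot be told apart. Any difference in batch or sequencing run would be mixed in as well, and the ratio is a description with no test. Of 11337 protein-coding genes with a mean level of at least 1 ppm, all 7 members included, 4.46% were at least 2-fold higher in the KD experiment and 0.9% at least 2-fold lower. The median log2 ratio over these genes was 0.10.

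IFIT1, IFIT2 and IFIT3, 3 of the 7 members, were past 2-fold, and all 3 were higher in the KD experiment. IFIT2 had a log2 ratio of 3.02, an 8.14-fold higher level, and only 10 of the 11337 genes had a higher ratio. IFIT3 had 1.91, or 3.77-fold, with 63 genes above it. IFIT1 had 1.17, or 2.25-fold. IFIT5 had 0.90, or 1.86-fold, which did not reach 2-fold and was still above 94.1% of the genes. The summed IFIT level was 282 ppm in the KD experiment and 81.5 in the MC2580 experiment, a ratio of 3.47.
None of the IFITM genes reached 2-fold in either direction (0 of 3). The log2 ratio was -0.30 for IFITM1, -0.58 for IFITM2 and -0.53 for IFITM3, values that stood above 17.9%, 6.21% and 7.67% of the genes. Their summed level was 210 ppm in the KD experiment and 295 in the MC2580 experiment, a ratio of 0.714. The families therefore lay on opposite sides of the median gene, with no overlap between the IFIT values, from 0.90 to 3.02, and the IFITM values, from -0.58 to -0.30.

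The other genes of the pathway were described from lists chosen with earlier results of these data known. Of 34 other interferon-stimulated genes listed, 33 were analysed here and 32 of them passed the filter on the level. Of these, 12 were at least 2-fold higher in the KD experiment and 1 at least 2-fold lower, and 29 had a positive log2 ratio. Their median log2 ratio was 0.70. RSAD2, which encodes the antiviral enzyme viperin, had the highest value of this list, 2.52 (base means of 316 and 56.0), which lies below that of IFIT2. IFI27, which encodes a small mitochondrial membrane protein, had the lowest, -1.81 (base means of 156 and 555). IFI6, with base means of 6038 and 11132, had a log2 ratio of -0.86, which also lies below every IFITM value. Hence the list held genes on both sides, but most of them were higher in the KD experiment, whereas every IFITM gene was lower. A lower level was thus not particular to the IFITM genes.
Of the 7 genes of the receptor and ISGF3, JAK1 alone was past 2-fold, with a log2 ratio of 1.08, and IRF9 had the lowest ratio, -0.12. Their median was 0.67. The genes of the interferons themselves were at or near 0: of 20 type I and type III interferon genes, 8 were at 0 in both experiments and none exceeded a base mean of 3.68 in the KD experiment or 3.75 in the MC2580 experiment. As a reference, 10 housekeeping genes had a median of -0.13 and ranged from -0.24 for HPRT1 to 0.57 for YWHAZ, with 0 past 2-fold. Of the genes that are not members and have a promoter window, 6.32% of the 348 with the motif were at least 2-fold higher in the KD experiment, against 3.75% of the 8647 without it, with median log2 ratios of 0.22 and 0.09. The other interferon-stimulated genes listed were not left out here, and 21 of the 27 of them with a window held the motif. Their part in this difference was not tested.

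**Figure D3:**
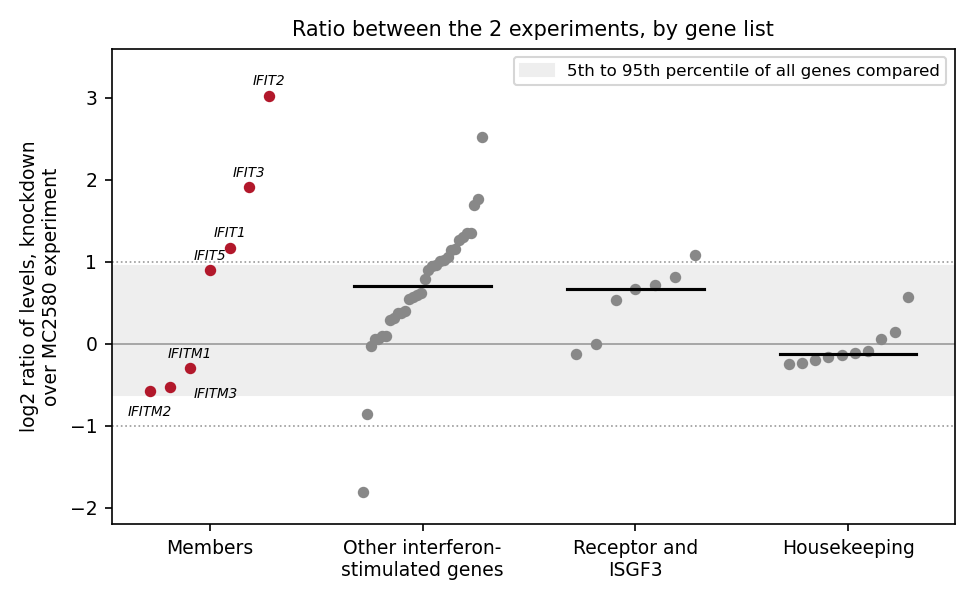
Log2 ratio of the level in the KD experiment over that in the MC2580 experiment (y axis) for the 7 members and 3 gene lists; each point is 1 gene, black lines are list medians, dotted lines mark 2-fold, and the gray band spans the 5th to the 95th percentile of the 11337 genes compared. IFIT1, IFIT2 and IFIT3 lie above the band and the upper dotted line, and the 3 IFITM genes lie within the band below 0.

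Position on the chromosome was considered next. Within 500 kb of the IFIT cluster, 7 protein-coding genes that are not members passed the filter, with log2 ratios from 0.00 for ANKRD22 to 0.76 for KIF20B and a median of 0.53. None was past 2-fold (0 genes). All 4 IFIT members lay above every one of these neighbors, including LIPA, the lysosomal acid lipase gene, at 0.11. Around the IFITM cluster, 22 such genes had a median of -0.40, and their range, from -0.996 for CRACR2B to 0.17 for PHRF1, contained all 3 IFITM values. IRF7, a transcription factor of the interferon response in the same region, had a log2 ratio of 0.03.

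**Figure D4:**
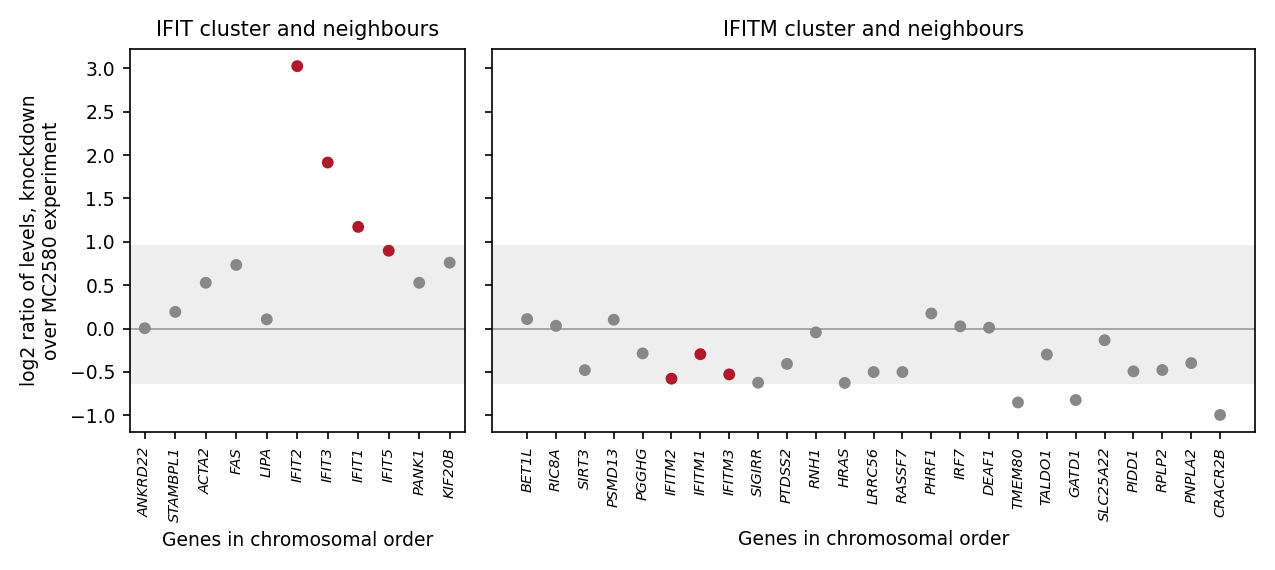
Log2 ratio of the level in the KD experiment over that in the MC2580 experiment (y axis) for the members (red) and for the protein-coding genes within 500 kb of each cluster (gray), in chromosomal order with equal spacing; the gray band spans the 5th to the 95th percentile of all genes compared. The IFIT genes stand above their neighbors, and the IFITM genes lie within the range of theirs.

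The ratio moved with base composition over all genes. In the quintile of genes with the lowest GC content of the transcript the median log2 ratio was 0.27, and in the highest quintile it was -0.20. The IFIT transcripts have a GC content of 37.5% to 43.1% and the IFITM transcripts of 55.7% to 58.9%, so the families differ in the same direction as these medians. Against the median of their own quintile, IFIT2 was higher by 2.79, IFIT3 by 1.68, IFIT1 by 0.94 and IFIT5 by 0.63 on the log2 scale. On the same scale IFITM1 was at -0.28, IFITM2 at -0.56 and IFITM3 at -0.33. Within its quintile of 2264 genes IFIT2 had 2 genes above it, and IFIT5 had 122 above it of 2265. IFITM1, IFITM2 and IFITM3 stood above 22.6%, 6.85% and 21.3% of the genes in their quintiles. The part of base composition in the ratios of either family was not tested.

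Likeness between members limits how well reads can be assigned. The coding sequences of the IFIT genes were 55.8% to 65.2% identical in the 6 pairs, and the longest stretch that any pair of IFIT transcripts shared exactly was 26 bases. IFITM2 and IFITM3 were 93.2% identical in coding sequence, and IFITM1 was 65.5% identical to IFITM2 and 66.7% to IFITM3. IFITM1 and IFITM3 shared an exact stretch of 141 bases. Of all stretches of 50 bases in the MANE Select transcript, 55.1% in IFITM1, 20.8% in IFITM3 and 12.0% in IFITM2 occurred in a transcript of another gene. These shares were 0% for IFIT2 and IFIT5, 1.11% for IFIT1 and 2.73% for IFIT3. For IFITM1, 50.7% of the stretches were shared with a readthrough gene that joins it to IFITM2 in GENCODE release 44 (ENSG00000288681). That gene is not among the 60603 genes with a base mean. With members that are among them, IFITM1 shared 15.8% of its stretches with IFITM3 and 8.08% with IFITM2. The levels of the IFITM genes relative to each other are therefore uncertain, and the low value of IFITM3 is among them.
The 8 other genes named IFIT or IFITM, 3 of them protein-coding (IFIT1B, IFITM5 and IFITM10) and the rest pseudogenes, had base means of at most 6.15 in the KD experiment and 13.4 in the MC2580 experiment, the highest being IFIT1P1 in each. The libraries were made with a kit that does not keep strand. Genes on the opposite strand overlap IFIT1, IFIT2 and IFIT3 (LIPA) and the IFITM genes (noncoding genes and a pseudogene), but none of their annotated exons covers a base of a member's MANE Select exons (0 bases).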

How the data were processed

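NB4 libraries were prepared by the authors with TruSeq RNA Sample Preparation v2 and sequenced on a NovaSeq instrument. Per the labels and the methods, the authors used bcl2fastq 2, FastQC 0.11.5, STAR 2.7 with hg38, RSEM and DESeq2; the annotation release is not given in the sources used here. Each deposited table holds a signal, the base mean: counts that the authors divided by size factors and averaged over libraries, taken here as all those of an experiment. The tables also hold the authors' own comparisons (log2 fold changes, standard errors, Wald statistics and p-values), which were not used. With no value per library, the count test planned for that case was not run, no precision could be given, and no group was compared with another.

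Base means were divided by their sum over all genes and multiplied by 1000000 (ppm). A gene was called at a 2-fold difference between experiments, among protein-coding genes with a mean level of at least 1 ppm. GENCODE release 44 matched 60261 of 60603 identifiers. Coding sequences were aligned globally with Biopython 1.88, in place of the protein comparison planned, as no protein table was used. The members, lists and rules were chosen with earlier results of these data known. Named genes are the members, GSE1, KDM1A, the extremes of each list or locus, and genes a result turns on. LIPA, IRF7, IFI6, CTSG, PRTN3 and CD33 were named after their values were seen.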

Additional observations from a re-analysis of the deposited data

How the results depend on the processing

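Under the 6 alternatives of scaling, pseudocount and filter, the log2 ratios of the members kept their direction and their side of 2-fold in all 41 values, with ranges of 2.91 to 3.02 for IFIT2, 1.82 to 1.91 for IFIT3, 1.08 to 1.17 for IFIT1 and 0.80 to 0.90 for IFIT5. A filter cannot change the ratio of a gene, and a change of scaling moves all genes by the same amount. Only the pseudocount acts gene by gene, so this agreement says little about how reliable the ratios are. The count of 3 members past 2-fold was also 3 in each, and IFITM3 gave no value with a mean level of at least 10 ppm. The background moved more. The share of genes at least 2-fold higher and lower in the KD experiment was 2.96% and 0.432% with a pseudocount of 1 ppm, 9.14% and 6.98% with no filter, and 2.52% and 0.419% with a mean level of at least 10 ppm. With the MANE Select transcript as the length, an alternative added after seeing the data, the highest over the lowest member was 7.08 (IFIT, KD), 3.53 (IFIT, MC2580), 18.7 (IFITM, KD) and 19.3 (IFITM, MC2580). Allowing a gap of 1 or 2 bases, 6.40% of all promoter windows held the motif. No library could be left out, and the depth behind each value is unknown. No paired analysis was possible because no value per library was used.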
